A study of Homo sapiens with 5 samples.

Results

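The genes described here are a fixed set of 56 genes of G2 phase and mitosis, chosen by name from the rows of a table of gene counts. Of these, 55 were analysed, out of 24497 gene rows in the table, and CKS1B was not analysed here. The counts came from HEK293 cells, an established human line made from embryonic kidney cells with adenovirus DNA, whose E1A protein acts on the RB pathway. Batch B comprised 3 libraries and batch A comprised 2 libraries. Both batches used cells grown in DMEM with glutamine and 10% fetal calf serum, and the labels name no treatment, synchronisation step or change of genotype, nor how the batches differed. Each library carried cDNA of 100 cells, taken from a lysate of 1000 cells in a buffer with Tween 20, reverse transcribed from oligo-dT, amplified in 18 cycles and selected for the 5′ ends of transcripts. Libraries are named B1, B2 and B3 and A2 and A3, by batch and by the number that ends their column, and these numbers pair no libraries. Separate cultures are not named in the labels, so a p-value compares the batches with a library-to-library spread that may be technical.

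Entry into mitosis is driven by CDK1 bound to a B-type cyclin, which is activated by CDC25 phosphatases and assisted by the Polo and Aurora kinases. Exit follows when the anaphase-promoting complex, a ubiquitin ligase abbreviated APC/C, marks cyclin B and securin for destruction, once the spindle checkpoint has recorded that kinetochores are attached to microtubules. Transcripts of this program accumulate in G2 and mitosis and are kept low in G1 by the DREAM complex, whose MuvB core binds a short promoter element called CHR. The factors B-MYB and FOXM1 act through the same MuvB core, and NF-Y binds the CCAAT boxes found upstream of many of these genes. In a bulk sample of cycling cells a lower level may mean fewer cells in G2 and mitosis or less RNA per such cell. Between batches whose differences are not described, it may also be technical or come from scaling to total gene counts. These cannot be told apart.

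The promoters of the set were inspected first, since they are the feature that its members could share by sequence. RefSeq promoter windows (GRCh38.p14, 250 bases before to 50 after the annotated start) were matched by symbol for 45 of the 55 genes. No window was matched for HMGB2, UBE2C, BIRC5, TPX2, FAM64A, ANP32E, HN1, TTK, CDCA2 and AURKA. The core letters of CHR, TTTGAA, were searched on both strands, as were those of the CCAAT box, CCAAT. Only these exact letters were searched, so a window without a match may hold another form of either element. The 110 bases before the start are shown for 6 members, 5′ to 3′ on the strand of the gene, with every match in capitals, and TTCAAA and ATTGG are the same motifs read on the other strand. CKS2 is shown because it fell in batch B. CCNB2 and PLK1 are shown because their CHR core stands at the same distance from the start as in CKS2. CDCA8 is shown because its motifs overlap, and CCNB1 and TUBB4B as abundant members without a TTTGAA match in this stretch.
CKS2, chr9:89311085-89311194, plus strand: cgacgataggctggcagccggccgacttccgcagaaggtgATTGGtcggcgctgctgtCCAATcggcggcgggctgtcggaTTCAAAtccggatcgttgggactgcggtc
CCNB2, chr15:59105036-59105145, plus strand: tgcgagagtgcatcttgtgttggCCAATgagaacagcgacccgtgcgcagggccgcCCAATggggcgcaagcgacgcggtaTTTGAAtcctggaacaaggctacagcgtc
PLK1, chr16:23678779-23678888, plus strand: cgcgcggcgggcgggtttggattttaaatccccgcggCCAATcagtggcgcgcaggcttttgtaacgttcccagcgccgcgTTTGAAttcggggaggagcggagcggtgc
CDCA8, chr1:37692406-37692515, plus strand: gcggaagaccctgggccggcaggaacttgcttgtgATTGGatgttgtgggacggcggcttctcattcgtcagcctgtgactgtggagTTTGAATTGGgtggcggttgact
CCNB1, chr5:69167040-69167149, plus strand: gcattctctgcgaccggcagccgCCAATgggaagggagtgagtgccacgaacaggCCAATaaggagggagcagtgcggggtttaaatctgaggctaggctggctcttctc
TUBB4B, chr9:137241177-137241286, plus strand: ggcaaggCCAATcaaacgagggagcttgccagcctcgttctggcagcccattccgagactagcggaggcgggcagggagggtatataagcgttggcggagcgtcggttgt

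In CKS2, CCNB2 and PLK1 the CHR core began 29 bases before the annotated start (position -29), with a CCAAT box upstream of it at -52, -54 and -73. In CDCA8 the core lay at -23 and shared a base with a CCAAT box at -18. The core was found anywhere in the 300-base window in 30 of 45 members (66.7%), against 683 of 7350 promoters of genes tested in these libraries (9.29%), the members among them. Of 27305 promoters in the whole table, 15.4% held it, and of 32 promoters of S phase genes, 2 held it (6.25%). Within the 100 bases before the start it was present in 17 of 45 members (37.8%) and in 2.45% of promoters of tested genes. CCAAT was found in 31 of 45 members (68.9%), against 23 of 32 S phase genes (71.9%) and 38.2% of tested genes, so this box was at a like share in both gene sets. Both motifs together stood within 100 bases before the start in 13 of 45 members (28.9%), in 0 of 32 S phase genes and in 0.857% of tested genes. Neither motif was found in the windows of 8 members, namely TACC3, CKAP2, CDC25C, KIF2C, RANGAP1, LBR, CENPE and GAS2L3. A match is a run of letters and not evidence of binding. In level, the 30 tested members with the core had a median of 90.6 CPM (counts per 1000000 gene counts, spike-ins left out). The 14 whose window lacked it had 144 CPM, and the 10 with no matched window had 160 CPM.

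**Figure D1:**
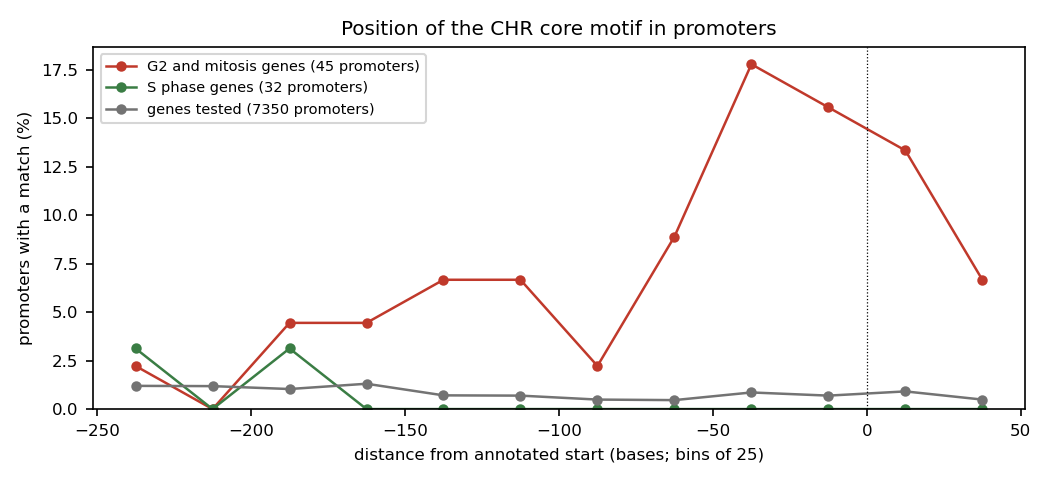
Share of promoters (vertical axis, %) with the CHR core TTTGAA on either strand in bins of 25 bases, by distance from the annotated start (horizontal axis, bases). In the 45 G2 and mitosis promoters the share is highest, at 17.8%, in the bin from 50 to 25 bases before the start, where 0.857% of the 7350 promoters of tested genes hold it.

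Gene counts per library ranged from 373687 in B1 to 803168 in A3, and a count of 0 would allow a level of 8.03 CPM in B1 and 3.74 CPM in A3, with 3 counts as the limit. All 7 genes set as markers of HEK293 had counts, with a summed level of 768 to 838 CPM in batch B and 712 to 726 CPM in batch A, though the kidney factor PAX2 was near 0, at 1 to 4 counts per library. Of the genes set as markers of T cells, liver and heart muscle, CD3E, ALB and MYH7 were at 0 in every library. ERCC spike-in RNAs, which the protocol text places in the lysis buffer, had 1 to 19 counts per library in batch B and 1785 and 2127 in batch A, so levels here are relative to total gene counts only and amounts of RNA per cell were not measured.

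All 55 genes had counts in all 5 libraries, with totals over the libraries from 22 for GAS2L3 to 1377 for TUBB4B. Mean levels ran from 7.4 CPM for GAS2L3 to 446 CPM for TUBB4B, 28 genes exceeded 100 CPM, and 43 lay above the median of 45.9 CPM of all tested genes. The assay counts a transcript at its 5′ end, so that a level is given in CPM without division by length. The ratio per kb of transcript is added wherever 2 genes are compared. That ratio would apply only to counts spread along transcripts, and for counts at 5′ ends the CPM ratio is the one to read. Batch B was compared with batch A by edgeR's quasi-likelihood test over the whole table. The low-count filter was passed by 54 of the 55 genes and not by GAS2L3, a microtubule- and actin-binding protein of the central spindle, which had 4, 4 and 4 counts in B1, B2 and B3 and 5 and 5 in A2 and A3.

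**Figure D2:**
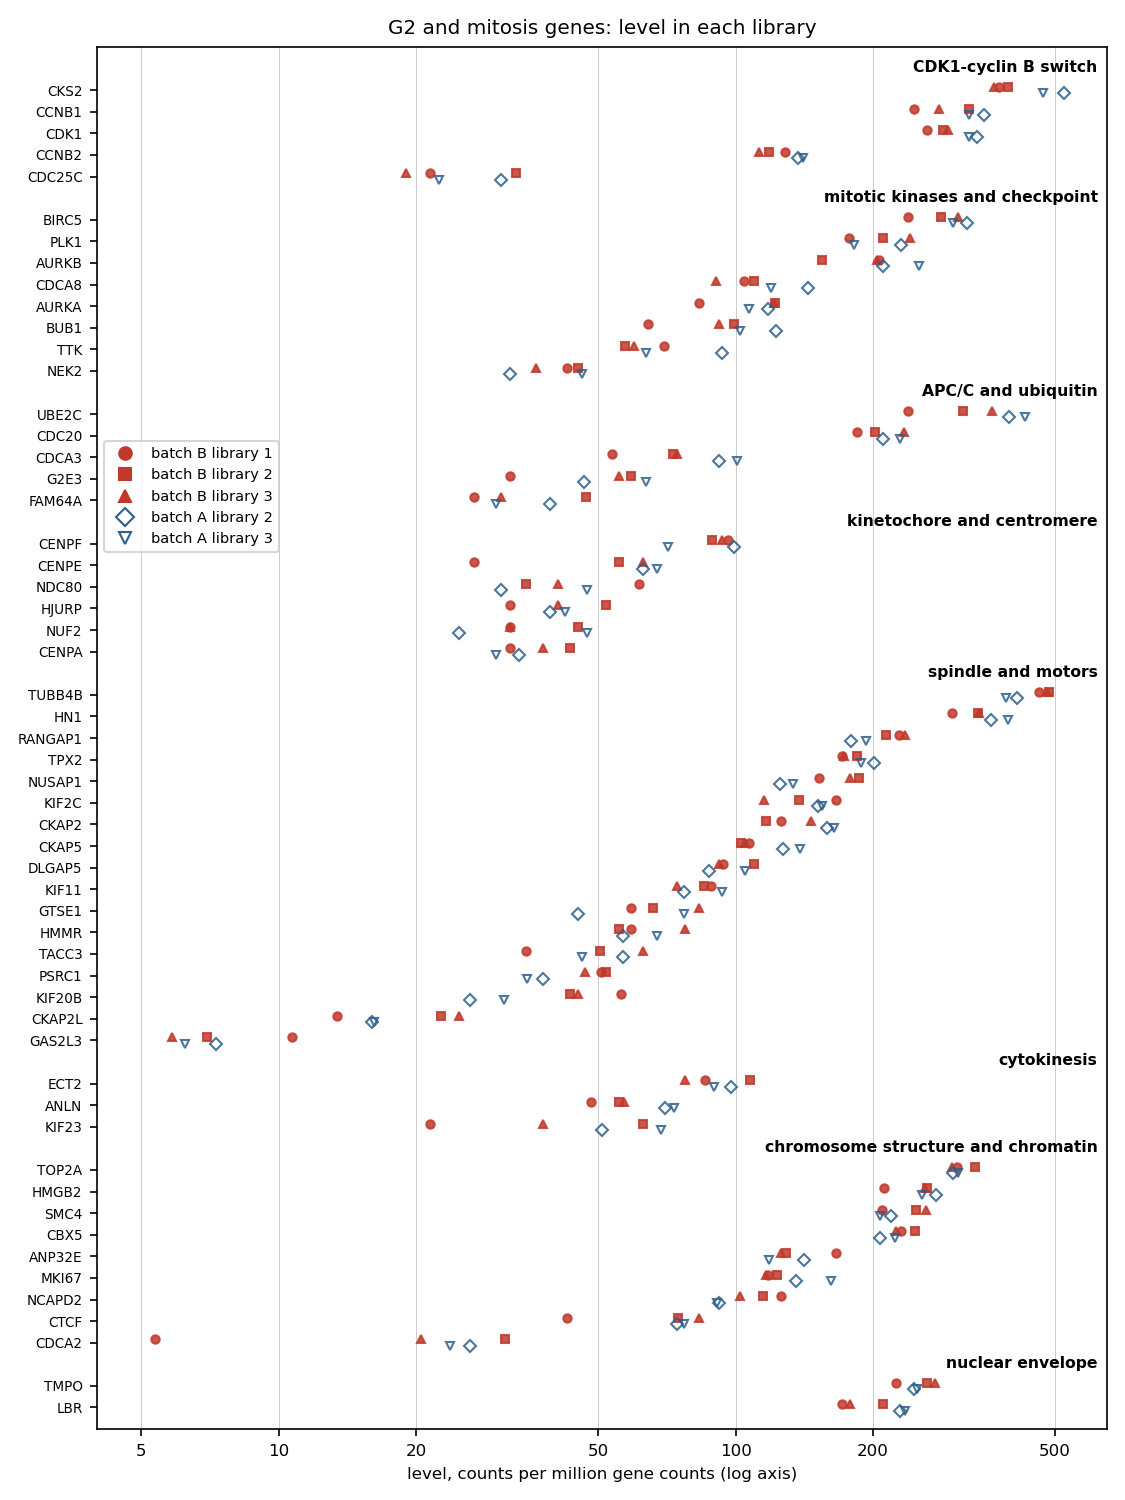
Level of each of the 55 genes in each library, in CPM on a log axis, grouped by role and ordered by mean level within a role. Filled red marks are the 3 batch B libraries and open blue marks the 2 batch A libraries. TUBB4B is highest at 446 CPM and GAS2L3 lowest at 7.4 CPM on average.

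Of the 54 tested genes, 1 rose and 2 fell in batch B at an adjusted p under 0.05 (Benjamini-Hochberg over all tested genes). The spindle gene NUSAP1 rose 1.37-fold, while UBE2C, the ubiquitin-conjugating enzyme of the APC/C, and CKS2, a CDK-binding subunit, were 1.30-fold and 1.28-fold higher in batch A. That is 3 of 54 genes, or 5.56%, where 387 of 9215 tested genes (4.2%) were called, 2.15% as higher and 2.05% as lower, so the share called was near the background. At an unadjusted p under 0.05, 4 of the 54 were higher and 8 lower in batch B, 22.2% together against a background of 16.4% (8.3% higher and 8.13% lower). The libraries of the batches did not overlap for 23 genes (42.6%), 7 higher and 16 lower in batch B. The background was 31.3%, of which 13.5% were higher and 17.8% lower. The 54 genes had a median of 108 CPM and all tested genes 45.9 CPM, so these shares are set side by side at unlike abundance. The median log2 fold change was -0.045 over the 54 genes and 0.00396 over all tested genes, and 25 of the 54 were positive and 29 negative. The DESeq2 Wald test called 0 of 54 members and 41 of 9215 genes, with 3 members and 509 genes at an unadjusted p under 0.05. After thinning all libraries to the smallest, edgeR called 0 of 52 members and 209 of 7209 genes. Its unadjusted p was then under 0.05 for 6 members and 1079 genes. Without B2 edgeR called 0 members and 202 of 8995 genes, with 12 and 1295 unadjusted. Among members it called UBE2C alone without B3 (333 of 8736 genes), and CKS2 and NUSAP1 without B1 (302 of 8993 genes). Without A2 or A3, 1 library was left in batch A. The log2 fold changes were then -0.26 and -0.45 for CKS2, -0.40 and -0.33 for UBE2C, and 0.44 and 0.48 for NUSAP1.

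**Figure D3:**
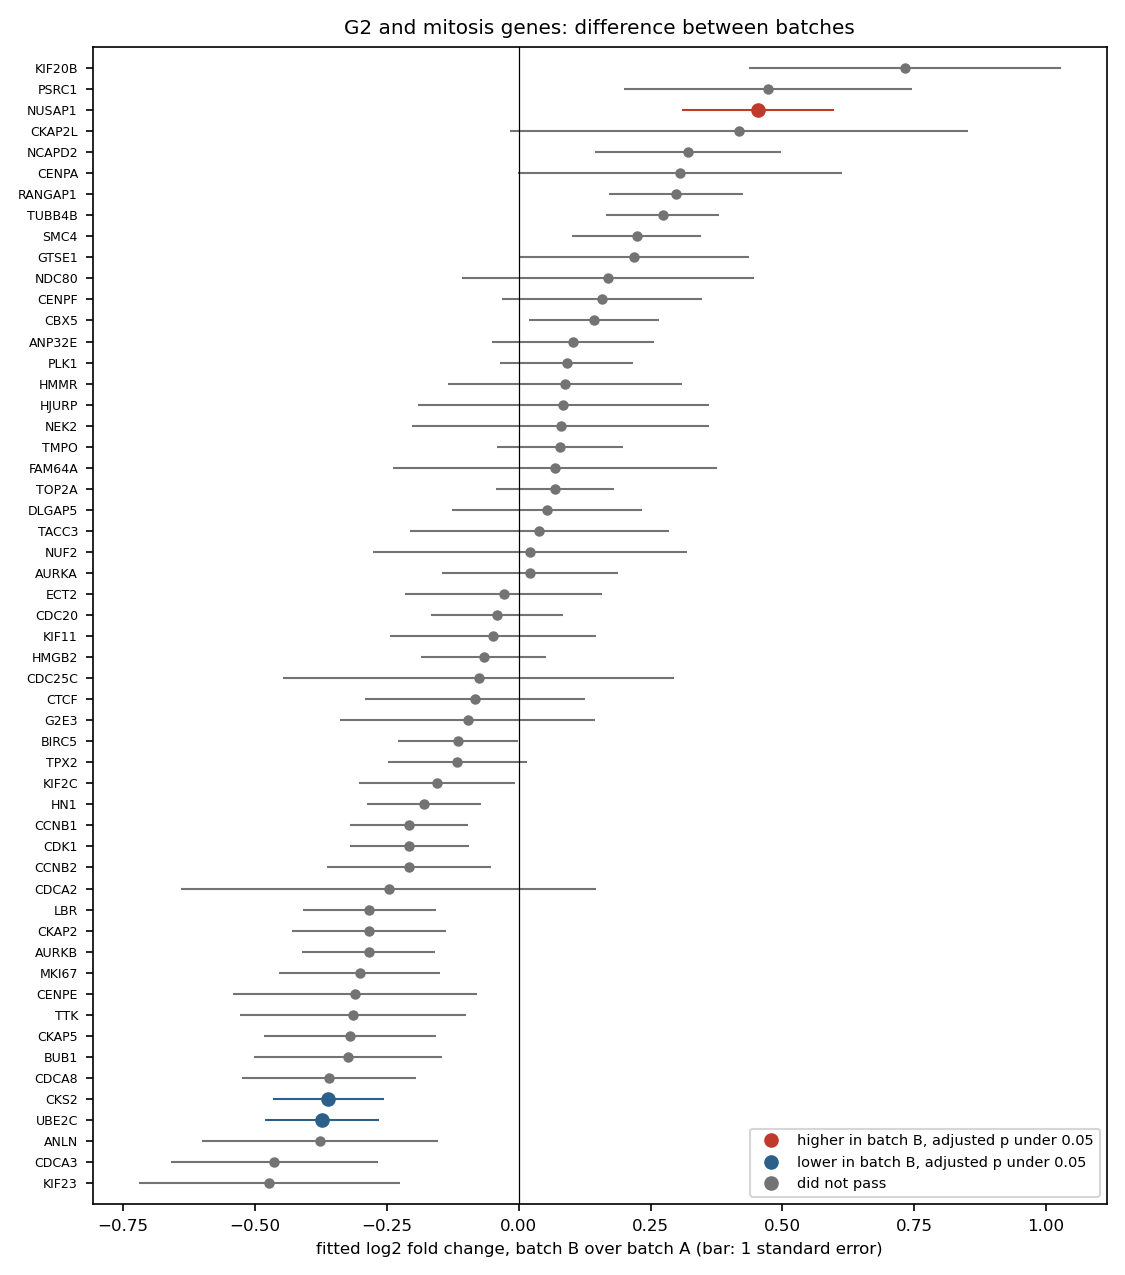
Fitted log2 fold change of batch B over batch A (horizontal axis) for the 54 tested genes, with bars of 1 standard error. NUSAP1, in red, was called higher in batch B at 0.45, and CKS2 and UBE2C, in blue, were called lower at -0.36 and -0.37. Grey genes did not pass, among them KIF20B at 0.73.

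All 5 genes of the CDK1-cyclin B switch had negative fitted changes, and their mean levels ran from 25.3 CPM for CDC25C to 427 CPM for CKS2. CDK1, the catalytic subunit, had 262, 285 and 292 CPM in B1, B2 and B3 and 338 and 325 CPM in A2 and A3. CCNB1, cyclin B1, had 246, 325 and 279 CPM in batch B and 349 and 325 CPM in batch A. For CDK1 every batch B library lay below both batch A libraries, and for CCNB1 B2 and A3 were level. Neither passed the test, each with a log2 fold change of -0.21 (SE 0.11, edgeR adjusted p = 0.346 and 0.344). CCNB2, cyclin B2, which is known from Golgi membranes, had 128, 118 and 112 CPM in batch B and 137 and 141 CPM in batch A, and did not pass at -0.21 (SE 0.16, edgeR adjusted p = 0.554).

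CKS2, a small protein that helps CDK1 to bind phosphorylated substrates, had 377, 394 and 368 CPM in batch B and 523 and 471 CPM in batch A. The groups were well apart and the gene fell in batch B, by 0.36 on the log2 scale (SE 0.11, edgeR adjusted p = 0.0228). The call was lost with DESeq2 (adjusted p = 0.499), after thinning (edgeR adjusted p = 0.0761) and without A2 (0.427), B2 (0.0785) or B3 (0.138), with a log2 fold change of -0.39 to -0.26 in those 5 fits. CDC25C, the phosphatase that removes the inhibitory phosphates of CDK1, was far lower at 8, 19 and 13 counts in batch B and 21 and 18 in batch A. The level of CCNB1 was 1.92, 2.75 and 2.48 times that of CCNB2 in B1, B2 and B3 and 2.55 and 2.31 times in A2 and A3, or 1.72 times per kb of transcript. CDK1 and CCNB1 were nearly level, with a ratio of 0.877 to 1.07 over the 5 libraries and of 1.12 per kb. Summed over CDK1, CCNB1, CCNB2, CKS2 and CDC25C, the level was 1087 ± 61.8 CPM in batch B (SD, n = 3) and 1330 ± 66.2 CPM in batch A (SD, n = 2). These sums did not overlap between the batches, and CKS2 alone averaged 380 CPM in batch B and 497 CPM in batch A. Sums of the kinase and checkpoint, APC/C and nuclear envelope classes were also lower in batch B without overlap. For the nuclear envelope the margin was narrow, 473 CPM in B2 and 475 CPM in A2. Sums of the other role classes overlapped. A sum over chosen genes was given no test.

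Mitotic kinases and checkpoint proteins showed no call in 8 genes, of which 3 had positive and 5 negative fitted changes. PLK1, the Polo kinase that acts from mitotic entry to cytokinesis, had 177, 210 and 241 CPM in batch B and 230 and 182 CPM in batch A, so the batches overlapped widely. AURKA, the centrosomal Aurora kinase, had 83.0, 122 and 121 CPM in batch B and 118 and 107 CPM in batch A. AURKB, the Aurora kinase of the chromosomal passenger complex, had 206, 155 and 204 CPM in batch B and 210 and 252 CPM in batch A, with an unadjusted p of 0.0239 in edgeR and an adjusted p = 0.212. The ratio of AURKA to AURKB was 0.403, 0.787 and 0.593 in batch B and 0.562 and 0.426 in batch A, below 1 in all 5 libraries and 0.293 per kb.

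The other subunits of the passenger complex in the set were CDCA8, or borealin, and BIRC5, or survivin. CDCA8 had 104, 109 and 90.5 CPM in batch B and 144 and 120 CPM in batch A, lower in every batch B library but not called (log2 fold change -0.36, SE 0.16, edgeR adjusted p = 0.232). BIRC5 had 238, 282 and 306.5 CPM in batch B and 320 and 299 CPM in batch A, with overlapping batches. BIRC5 exceeded CDCA8 2.22- to 3.39-fold over the libraries and 2.39-fold per kb. In CPM, BIRC5 also exceeded AURKB in all 5 libraries, 1.16- to 1.82-fold. The ratio of BIRC5 to AURKB per kb, 0.657, was below 1 only through the division by length. Of the checkpoint kinases, BUB1 averaged 85.1 ± 18.4 CPM in batch B and 112 ± 14.3 CPM in batch A, and TTK, also called MPS1, averaged 62.3 ± 6.46 CPM in batch B and 78.3 ± 21.0 CPM in batch A. NEK2, a centrosome-splitting kinase, averaged 41.5 ± 4.5 CPM in batch B and 39.0 ± 9.93 CPM in batch A (SD, n = 3 and 2 for each of these genes).

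Genes of the APC/C pathway were led by UBE2C, which passes ubiquitin to APC/C substrates. UBE2C had 238, 315 and 363 CPM in B1, B2 and B3 and 397 and 430 CPM in A2 and A3. Its lowest value fell in B1, the shallowest, and no batch B library reached batch A. It fell by 0.37 on the log2 scale (SE 0.11, edgeR adjusted p = 0.0194), and the call held in the fit without B3 but was lost in the other 4 fits that left out a library (edgeR adjusted p = 0.0982 to 0.259), with DESeq2 (0.554) and after thinning (0.210). Without B1 the log2 fold change was -0.27. CDC20, the APC/C activator of metaphase, had 185, 202 and 234 CPM in batch B and 210 and 229 CPM in batch A, which overlap. The ratio of UBE2C to CDC20 was 1.29, 1.56 and 1.56 in batch B and 1.90 and 1.88 in batch A, with no overlap, and 3.44 per kb over all libraries.

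CDCA3, known as a trigger of mitotic entry that acts in an SCF ligase, had 53.5, 73.0 and 74.4 CPM in batch B and 91.7 and 101 CPM in batch A. Its log2 fold change of -0.46 (SE 0.20) was one of the 3 most negative of the set, with all batch B libraries below batch A, and it did not pass (edgeR adjusted p = 0.186). G2E3, a ubiquitin ligase named for its G2-phase expression, averaged 48.9 ± 14.6 CPM in batch B and 55.0 ± 11.96 CPM in batch A, and FAM64A, now called PIMREG, averaged 34.8 ± 10.7 CPM in batch B and 34.6 ± 6.67 CPM in batch A (SD, n = 3 and 2).

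Kinetochore and centromere genes had mean levels of 35.4 to 89.7 CPM, and 0 of the 6 had libraries that did not overlap between the batches, where the background was 31.3%. NDC80 and NUF2 form the coiled-coil arm of the complex that grips microtubules. NDC80 had 23, 20 and 28 counts in B1, B2 and B3 and 21 and 38 in A2 and A3. NUF2 had 12, 26 and 22 counts in batch B and 17 and 38 in batch A. In both, the counts of A3 were the highest, and it was also the deepest library. The ratio of NDC80 to NUF2 was 1.92, 0.769 and 1.27 in batch B and 1.24 and 1.00 in batch A, and 1.07 per kb over all libraries, so the 2 partners could not be told apart in level. CENPA, the histone H3 variant of centromeres, and its chaperone HJURP averaged 37.8 ± 5.67 and 41.7 ± 10.0 CPM in batch B and 31.7 ± 2.55 and 40.8 ± 2.14 CPM in batch A. CENPF, a large protein of the outer kinetochore, averaged 92.8 ± 3.89 CPM in batch B and 84.98 ± 19.8 CPM in batch A, and CENPE, the kinetochore kinesin, 48.4 ± 19.1 CPM in batch B and 64.9 ± 3.28 CPM in batch A, with a low value of 26.8 CPM in B1 (SD, n = 3 and 2 for each).

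Spindle genes formed the largest role class, with 17 genes, and differed in direction among themselves. NUSAP1, which bundles spindle microtubules near chromosomes, had 153, 186 and 178 CPM in batch B and 125 and 133 CPM in batch A. All batch B libraries were higher, and it rose by 0.45 on the log2 scale (SE 0.14, edgeR adjusted p = 0.0439). The call stood close to the threshold and was lost with library totals in place of TMM scaling (edgeR adjusted p = 0.0659), with limma-voom (0.0556), without a filter on low counts (0.161) and with DESeq2 (0.668), with log2 fold changes of 0.43 to 0.45. It was also lost in 4 of the 5 fits that left out a library, all but that without B1, at log2 fold changes of 0.40 to 0.48 (edgeR adjusted p = 0.104 to 0.253), and after thinning, at 0.28 (edgeR adjusted p = 0.489).

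TUBB4B, a beta-tubulin, was the most abundant member, with 460, 485 and 480 CPM in batch B and 412 and 391 CPM in batch A. It was higher in every batch B library and did not pass (log2 fold change 0.27, SE 0.11, edgeR adjusted p = 0.137). KIF20B, a kinesin of late mitosis, had the most positive change of the set at 0.73 (SE 0.30), from 21, 25 and 31 counts in batch B and 18 and 25 in batch A, and did not pass either (edgeR adjusted p = 0.151). PSRC1, a regulator of microtubule dynamics, had 50.8, 52.1 and 46.7 CPM in batch B and 37.9 and 34.9 CPM in batch A, and RANGAP1, the GTPase activator of Ran that is also found at kinetochores, averaged 225 ± 10.8 CPM in batch B and 186 ± 9.84 CPM in batch A (SD, n = 3 and 2). Both were higher in every batch B library without passing, at log2 fold changes of 0.47 and 0.30 (edgeR adjusted p = 0.386 and 0.188).

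Other spindle genes lay lower in batch B. CKAP5, the microtubule polymerase also known as ch-TOG, had 107, 103 and 105 CPM in batch B and 127 and 138 CPM in batch A, and CKAP2, a spindle-pole protein, had 126, 116 and 146 CPM in batch B and 159 and 164 CPM in batch A. These groups did not overlap, and neither gene passed (log2 fold change -0.32 and -0.28, edgeR adjusted p = 0.300 and 0.312). Its relative CKAP2L had 5, 13 and 17 counts in batch B and 11 and 13 in batch A. CKAP2 was 9.4, 5.15 and 5.88 times as high as CKAP2L in batch B and 9.91 and 10.2 times in batch A, and 10.3 times per kb. HN1, now called JPT1, had 297, 339 and 342 CPM in batch B and 363 and 395 CPM in batch A, likewise without overlap and without a call (edgeR adjusted p = 0.415). TPX2, which activates AURKA on the spindle, averaged 176 ± 7.21 CPM in batch B and 194 ± 9.12 CPM in batch A. The motors KIF11, which pushes spindle poles apart, and KIF2C, which takes microtubules apart at centromeres, overlapped between the batches, as did DLGAP5, HMMR, TACC3 and GTSE1. The 17 genes summed to 2238 ± 58.3 CPM in batch B and 2180 ± 75.4 CPM in batch A (SD, n = 3 and 2).

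The 3 cytokinesis genes all had negative fitted changes. KIF23, the kinesin of the centralspindlin complex, had 8, 36 and 26 counts in B1, B2 and B3 and 35 and 55 in A2 and A3. Its log2 fold change of -0.47 (SE 0.25, edgeR adjusted p = 0.321) was the most negative of the set, yet B2 lay within the batch A values in CPM. ANLN, or anillin, a scaffold of the contractile ring, had 48.2, 55.6 and 56.9 CPM in batch B and 69.9 and 73.5 CPM in batch A, apart from each other but not called (log2 fold change -0.38, SE 0.22, edgeR adjusted p = 0.409). ECT2, the exchange factor that activates RhoA at the division plane, averaged 90.2 ± 15.7 CPM in batch B and 93.6 ± 5.58 CPM in batch A (SD, n = 3 and 2).

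Of the 9 genes of chromosome structure none was called, and 3 had libraries that did not overlap, MKI67 lower and NCAPD2 and CBX5 higher in batch B, a share near the background of 31.3%. At an unadjusted p under 0.05 in edgeR, 1 of the 9 passed, MKI67. TOP2A, the topoisomerase that untangles sister chromatids, had 305, 334 and 298 CPM in batch B and 298 and 306 CPM in batch A. MKI67, the protein that coats mitotic chromosomes and serves as the Ki-67 proliferation marker, had 118, 123 and 117 CPM in batch B and 135 and 162 CPM in batch A, lower in all 3 libraries of batch B without a call (log2 fold change -0.30, SE 0.15, edgeR adjusted p = 0.300). TOP2A overlapped and MKI67 did not. The condensin subunits SMC4 and NCAPD2 averaged 239 ± 27.4 and 114 ± 11.8 CPM in batch B and 213 ± 8.27 and 91.3 ± 0.586 CPM in batch A, with SMC4 1.66 to 2.56 times as high as NCAPD2 and 2.21 times per kb. HMGB2, a DNA-bending protein, averaged 245 ± 28.7 CPM in batch B and 265 ± 14.1 CPM in batch A, and CBX5, or HP1 alpha, averaged 234 ± 11.5 CPM in batch B and 215 ± 11.4 CPM in batch A. ANP32E, a chaperone of the histone variant H2A.Z, averaged 140 ± 22.5 CPM in batch B and 130 ± 16.2 CPM in batch A, and the insulator protein gene CTCF averaged 66.9 ± 21.3 CPM in batch B and 75.7 ± 2.08 CPM in batch A. CDCA2, a targeting subunit of protein phosphatase 1 on anaphase chromosomes, had 2 counts in B1 and 14 to 19 in the other libraries. At the nuclear envelope, the lamin B receptor LBR had 171, 210 and 178 CPM in batch B and 229 and 235 CPM in batch A (log2 fold change -0.28, edgeR adjusted p = 0.214), while the lamina-associated protein gene TMPO averaged 253 ± 25.3 CPM in batch B and 248 ± 2.1 CPM in batch A (SD, n = 3 and 2).

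As a whole, the 55 genes took 0.697%, 0.777% and 0.769% of gene counts in B1, B2 and B3 and 0.801% and 0.802% in A2 and A3. The 95% exact Clopper-Pearson intervals, which cover counting error only, were 0.671 to 0.725% in B1 and 0.780 to 0.822% in A2. The difference of the means, -0.054 percentage points, was -0.0289 without B1. S phase genes, 42 genes of DNA replication used as a comparison list, took 0.598% ± 0.0112 in batch B and 0.587% ± 0.000785 in batch A (SD, n = 3 and 2). The ratio of G2 and mitosis counts to S phase counts was 1.14, 1.32 and 1.29 in batch B and 1.37 and 1.37 in batch A. All 3 batch B libraries lay below batch A, and the lowest was the shallowest library. After thinning all libraries to the smallest, an alternative chosen after seeing the data, the difference of the mean shares of the G2 and mitosis genes was -0.059 points. The 5 members of highest mean level, TUBB4B, CKS2, UBE2C, HN1 and TOP2A, made up 24.0 to 24.1% of the set's counts in batch B and 24.8 to 24.9% in batch A.

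**Figure D4:**
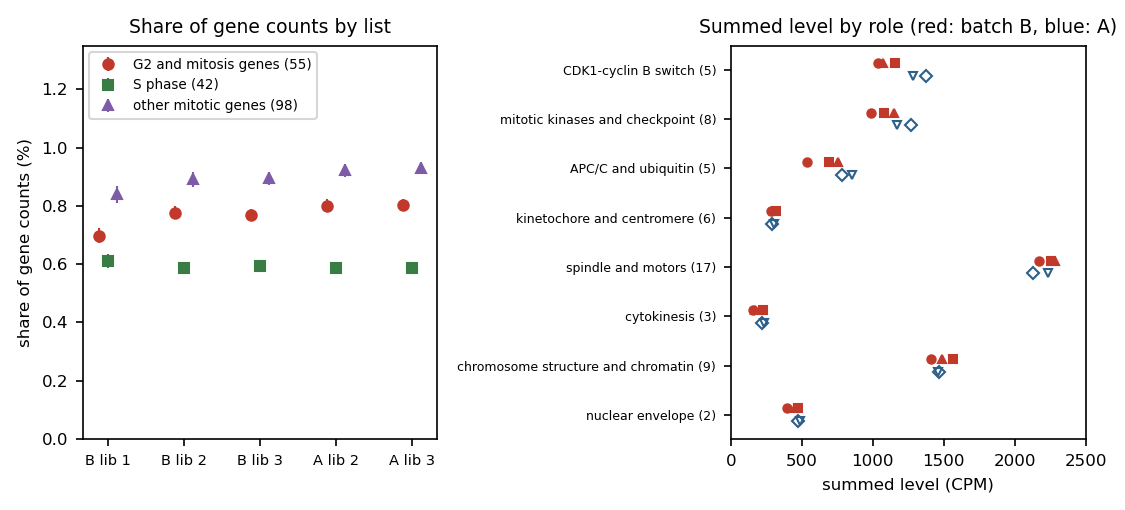
Left, share of all gene counts (%) taken by 55 G2 and mitosis genes, 42 S phase genes and 98 other mitotic genes in each library, with 95% exact binomial bars. Right, level summed by role (CPM), with the number of genes in brackets, batch B in filled red and batch A in open blue marks. The CDK1-cyclin B class averages 1087 CPM in batch B and 1330 CPM in batch A, without overlap. The kinase and checkpoint, APC/C and nuclear envelope classes also do not overlap, and the other classes do.

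A list of 98 other genes of mitosis was read out of the same fit, of which 90 were tested. In batch B, 2 of them fell and 0 rose, 2.22% against the background of 4.2%, and their median log2 fold change was -0.029. MAD2L1, the checkpoint protein MAD2 that holds back CDC20, had 56, 129 and 138 counts in batch B and 187 and 215 in batch A, and fell by 0.43 (SE 0.12, edgeR adjusted p = 0.0173). TFDP1, the dimer partner of E2F factors and of DREAM, had 44, 62 and 82 counts in batch B and 119 and 137 in batch A, and fell by 0.56 (SE 0.15, edgeR adjusted p = 0.00995). By unadjusted p under 0.05, 16 of the 90 passed (17.8%), 7 higher and 9 lower, near the background of 16.4% (8.3% higher and 8.13% lower). None of the 16 tested APC/C subunits and activators, 13 subunits or regulators of condensin and cohesin, 19 other kinetochore genes or 16 other spindle and cytokinesis genes was called, where 2, 2, 5 and 3 of them had an unadjusted p under 0.05. By the DESeq2 Wald test 0 of the 90 were called, with 4 at an unadjusted p under 0.05. Without A2 or A3 edgeR called 0 of these lists (14 and 10 unadjusted), and of the 2 calls TFDP1 was kept without B1 or B3 and MAD2L1 without B2. The most abundant of these lists was ANAPC11, the RING subunit of the APC/C, at 351 ± 64.7 CPM in batch B and 388 ± 4.88 CPM in batch A (SD, n = 3 and 2). Of 41 tested S phase genes, 2 rose and 1 fell, 7.32% against the background of 4.2%. By unadjusted p under 0.05 in edgeR, 9 of the 41 passed (22.0%), 3 higher and 6 lower, against 16.4%. RPA2, a subunit of the single-strand binding protein RPA, rose by 0.46 and the helicase subunit MCM4 by 0.39 (edgeR adjusted p = 0.0022 and 0.0206), and GINS2, of the same replicative helicase, fell by 0.58 (edgeR adjusted p = 0.00045).

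Spread between libraries of 1 batch was near counting noise for most members. A chi-square value of the counts around their batch means was divided by its 3 degrees of freedom. For independent counts its mean over genes would be near 1 and its median below 1. The median was 0.841 over the 54 genes and 0.979 over all tested genes. The value was highest for KIF23 at 3.67, UBE2C at 3.06 and PLK1 at 2.81, and low for CDK1 at 0.253 and ANLN at 0.0622. The test pools the spread over genes of like abundance, so that the p-value of UBE2C does not reflect that gene's own larger spread. It is not known if the counts are of reads or of molecules, so values near 1 cannot be read as pure sampling.

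Level was only weakly related to transcript length. Principal transcripts of GENCODE release 29, matched by symbol for 53 of the 54 tested genes, ran from 613 bases for CKS2 to 12678 bases for MKI67. Spearman's rho between length and mean level was -0.15 over these 53 genes and -0.26 over 8689 tested genes, as a description across genes that share libraries and are not independent replicates. The 18 genes with the shortest transcripts, up to 2172 bases, had a median of 141 CPM, and the 18 with the longest, from 3731 bases, had 90.6 CPM. Among those 18 long transcripts TOP2A, SMC4, CBX5, RANGAP1 and LBR exceeded 200 CPM. Length and log2 fold change had a rho of 0.053 over the 53 genes. Ranked per kb of transcript, CKS2, UBE2C and TUBB4B were highest, at 696, 410 and 272 CPM per kb. For counts at 5′ ends such a ranking favours short transcripts.

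**Figure D5:**
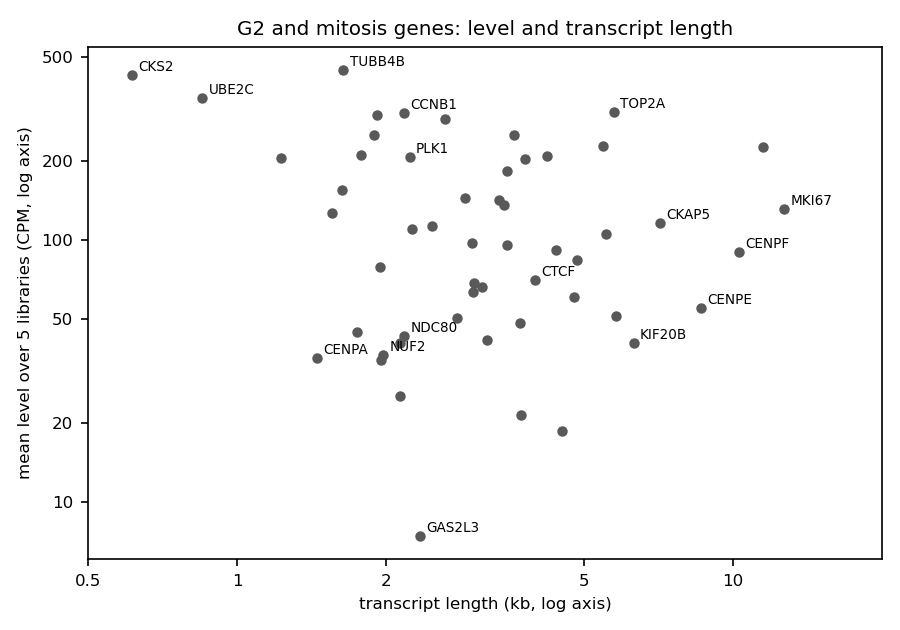
Mean level over the 5 libraries (vertical axis, CPM, log scale) against length of the principal transcript (horizontal axis, kb, log scale) for the 54 of 55 genes with a length. Short transcripts such as CKS2 and UBE2C stand at the top left, and long ones such as MKI67, CENPF and CENPE range from 55.0 to 131 CPM.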

How the data were processed

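The authors deposited 1 table of whole-number counts per gene for 5 libraries, with 24497 gene rows and 52 ERCC rows. The submitters' processing notes name cutadapt 1.2.1, STAR 2.4.0a, hg19 and GRCh37. Not given in the sources used here are the counting step, its annotation, any use of strand, and any collapse of the molecular identifiers (4 N and 4 H bases, per the labels' protocols). A column went to the batch whose titles share its first letters.

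Batches were compared with edgeR 4.0.16 in R 4.3.3 (TMM, filterByExpr, quasi-likelihood F test, Benjamini-Hochberg over 9215 genes with 97.1% of gene counts). The prior degrees of freedom were infinite. Standard errors (SE) were taken from the size of the log2 fold change over the root of F. DESeq2 1.42.0 and limma 3.58.1 served as alternatives. On simulated data, with changes set in genes of a mean count of at least 20, the test found 23 of 67 changes of 1.5-fold (34.3%). It found 59 of 67 of 2-fold and 66 of 66 of 4-fold, with 7 false calls. Changes of 1.5-fold or less may thus go uncalled. Members, lists and tests were chosen with earlier results of these data known. The naming rule took called members, the 8 most abundant, the 3 largest changes in each direction, partner pairs, CDK1, PLK1, TOP2A, MKI67 and filtered members, and other members whose values are given were chosen after these were seen. Promoters are RefSeq's (first row per symbol), on another build than the counts. The bases after the annotated start were found near the beginning of a GENCODE transcript for 39 of the 45 members matched. Distances of motifs depend on the start taken.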

Additional observations from a re-analysis of the deposited data

How the results depend on the processing

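No paired analysis was possible because the columns carry no number that matches the replicate numbers of the labels in both batches. Over 12 alternatives of the gene test, 387 calls over all genes became 41 with DESeq2 and 209 after thinning, and 138 to 333 when a library was left out. The 3 calls among G2 and mitosis genes became 0 with DESeq2, 0 after thinning and 0 to 2 with a library left out. Calls among other mitotic genes, 2 in the report, became 0 with DESeq2, 1 after thinning, 4 with a mean count of at least 20 and 0 to 1 with a library left out. Over 54 members, 46 of 643 fitted log2 fold changes turned sign, in 23 genes, all within 0.31 of 0 in the report's fit. Among genes named by rule these were 4, of which none was called. With a library left out, the log2 fold change of NDC80 ran from -0.067 (A2 out) to 0.52 and that of NUF2 from -0.32 (A2 out) to 0.57, turning negative also without B1 for NDC80 (-0.041) and without B2 for NUF2 (-0.17). AURKA ran from -0.069 (A3 out) to 0.13, with -0.05 (B2 out) and -0.035 (B3 out), and PLK1 from -0.098 (A3 out) to 0.29, with -0.0079 (B3 out). After thinning AURKA had -0.057 and PLK1 -0.032, and with library totals AURKA had -0.00031. The cause was not tested. Fits with 1 library in batch A assume that it varies like those of batch B. The difference in the share of counts was -0.0686 to -0.0289 points with a library left out, -0.0449 without mitochondrially encoded genes, -0.0346 without the 5 most abundant members and -0.059 after thinning, of which the thinned share was chosen after seeing the data. At 373687 counts, genes under 8.03 CPM may go unseen in B1.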

Other observations

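Rows of near copies and antisense partners of members held few counts. The antisense gene TMPO-AS1 had 3, 4 and 5 counts in B1, B2 and B3 and 5 and 6 in A2 and A3, and the processed pseudogene CDC20P1 had 2 counts over all 5 libraries. TMPOP1 and TUBB4BP3 had 0 counts in every library. Whether reads of such copies were assigned to the parent genes cannot be seen in the counts.

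Members whose promoter held the CHR core had a median log2 fold change of 0.038 (16 positive and 14 negative of 30 tested). Those whose window lacked it had -0.12 (6 positive and 8 negative of 14). The members with no matched window, whose status is unknown, also had -0.12 (3 positive and 7 negative of 10). These values are descriptions without a test.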
